A study of Sus scrofa with 45 samples.

Results

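Mevalonate kinase (MVK), phosphomevalonate kinase (PMVK), squalene epoxidase (SQLE) and methylsterol monooxygenase 1 (MSMO1, written SC4MOL on older arrays) are enzymes of the pathway by which animal cells make cholesterol. MVK and PMVK act early and add phosphate groups to mevalonate on the way to the isoprenoid units from which squalene is built. SQLE puts an oxygen onto squalene, the first oxygenation of the sterol branch, and MSMO1 acts further down, where it takes part in the removal of methyl groups from early sterols. The genes of this pathway are known to be driven by the transcription factor SREBP2 when the sterol content of the cell is low, and to be held back when cholesterol is plentiful. White blood cells carry the pathway, while mature red blood cells have no nucleus and no transcription of their own.

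The members were all array probes, control probes left out, whose gene name, RefSeq accession or description named one of these enzymes. This gave 4 of the 1903 genes named on the array, with 2 probes each, or 8 of 43603 probes. The probes of SQLE (A_72_P088686 and A_72_P374783) and MSMO1 A_72_P232327 were named from RefSeq transcripts of the pig, and MSMO1 A_72_P098986 from the gene name given for a cDNA clone of pig ovary. Those of MVK (A_72_P171246 and A_72_P296994) were named from descriptions of expressed sequences that are similar to 31% and 33% of the protein, and those of PMVK (A_72_P234547 and A_72_P278469) from a similarity to 80% and 77% of it, so these 4 names are less certain.

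The samples came from male Clawn miniature pigs, which were 12 weeks old when the diets began. They received a standard feed (control), a high-fat and high-cholesterol diet with lard and cholesterol (HFCD), or the same with added sucrose (HFCSD). RNA of whole blood, taken up in PAXgene tubes after 10, 19 and 27 weeks of feeding, and RNA of white blood cells, captured with a LeukoLOCK kit after 27 weeks, was labelled with 1 dye and read on 45 porcine Agilent arrays. The study asked how the diets change the expression profile of blood over the feeding period. There were 12 groups of sample type, week and diet, 9 with 4 arrays and 3 with 3 arrays. The groups of 3 were all whole blood, HFCSD at 19 weeks and either diet at 27 weeks. The labels do not tie arrays of different weeks, or of different sample types, to the same pig. As each diet was given to only 5 pigs, any 2 groups of a diet must share pigs if the arrays within a group were of different pigs. The comparisons of weeks and sample types and the correlations over the 45 arrays treat the arrays as separate.

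All levels are log2 values of the processed spot intensity, quantile normalized over the 45 arrays, and group levels are given as mean (SD) over the arrays of the group. A spot was counted as measured where the image software marked it as well above background. From array to array this share was 35.4% to 53.3% of the probe spots (median 43.9%). Differences were tested with limma, and a change passed where the Benjamini-Hochberg adjusted p over all probes tested in that comparison was under 0.05. A probe was tested only if 1 or more of the groups in the comparison had it well above background on all of their arrays. With 3 or 4 arrays per group every value has a wide error, and the p-values measure the spread between arrays. Both diets of a week used the same control arrays, and chance deviations of those arrays enter both changes.

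The labelled sample types were checked against marker genes of blood cells and liver. Of the T cell markers 6 of 7 genes were on the array (11 probes, CD3D with a mean log2 intensity of 12.10), of the monocyte markers 4 of 5 (11 probes, LYZ 13.10) and of the platelet markers 3 of 6 (4 probes, PF4 13.07). Neutrophils were represented by LTF alone (1 of 7 genes, 10.96), and the gene common to all leukocytes, PTPRC, was not named on the array (0 of 1). The only erythroid marker named, HBA (1 of 10 genes), lay near background with a mean of 1.72, so red cells could not be checked. On the linear scale its intensity was highest on HFCSD replicate 3 of whole blood at 19 weeks (33.8) and next on HFCSD replicate 3 at 27 weeks (9.93). Of the liver markers 7 of 8 genes were named (15 probes), and ALB, APOB and TTR were not well above background on any array.

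SQLE, on probe A_72_P088686, was the only member with all diet arrays below all controls in 8 of 8 comparisons. Among all probes tested the share with this order ran from 0.315% to 16.3% by comparison. The dim SQLE probe A_72_P374783 had it in 2 of 4 comparisons under HFCD and 3 of 4 under HFCSD. The means of A_72_P088686 under the diets were 30.4% to 36.9% of the control level in 7 comparisons. The mean was lower in HFCSD whole blood at 27 weeks, where 1 of 3 arrays was not well above background. Its change passed in 3 of 8. These were HFCSD whole blood at 27 weeks, where 10.6% of all probes passed, and white blood cells under HFCD (0.0276%) and HFCSD (0.0366%). MSMO1 had lower means under the diets in 7 of 8 comparisons on probe A_72_P232327 and in 8 of 8 on probe A_72_P098986, with the lowest level under HFCSD in whole blood at 27 weeks. MVK passed in that group alone, on 1 of its 2 probes. Only 1 of the 3 HFCSD arrays measured this MVK probe, which entered the test through its control arrays. The MVK call did not hold under every way of processing, and PMVK was too dim to be tested. In bulk samples such as these, fewer cells that carry a transcript and less of it per cell cannot be told apart.

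MVK, the first kinase of the pathway, was measured on 41 of 45 arrays by probe A_72_P171246. In whole blood at 10 weeks its log2 intensity was 5.23, 4.64, 5.05 and 5.89 on the control arrays, 5.73, 5.17, 5.34 and 5.69 on the HFCD arrays and 5.28, 4.53, 5.36 and 5.46 on the HFCSD arrays. At 19 weeks it was 4.31, 5.84, 5.23 and 5.44 in the control group, 5.80, 3.83, 4.67 and 5.23 under HFCD and 5.07, 5.35 and 5.18 under HFCSD. The groups of both weeks overlapped, and the spread within the HFCD group at 19 weeks (SD 0.84) was larger than any difference between the means of those weeks. At 27 weeks the whole blood values were 5.44, 5.73, 5.44 and 5.67 in the control group, 5.28, 5.06 and 5.38 under HFCD and 4.21, 4.51 and 5.08 under HFCSD. Here the control arrays lay above the arrays of both diets, and the first 2 HFCSD arrays were not well above background. White blood cells at 27 weeks had values of 5.94, 6.24, 6.09 and 5.16 in the control group, 5.57, 5.97, 5.44 and 5.56 under HFCD and 5.72, 6.38, 5.53 and 5.68 under HFCSD, which overlapped.

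The test of this MVK probe passed in 1 of 8 comparisons of a diet with control, HFCSD in whole blood at 27 weeks, where the level fell from 5.57 (0.15) to 4.60 (0.44). The log2 change was -0.97 (95% interval -1.50 to -0.45, limma adjusted p = 0.0324). As 2 of the 3 HFCSD arrays were not well above background, the size of this change rests in part on background signal and no fold is given. Within the 2 slides that held both groups the differences were -1.22 and -0.80, and with the slide as a random block the change was -0.99 (limma adjusted p = 0.0261). Over the other ways of processing it ran from -0.99 to -0.36, with adjusted p from 0.0261 to 0.216, and passed in 5 of 11. The call ended without control replicate 1, 2 or 3 (limma adjusted p = 0.0794, 0.0755 and 0.0741) and without HFCSD replicate 1 or 2 (0.122 and 0.0924). In the other 7 comparisons the change lay between -0.33 and 0.28, and the nearest adjusted p was 0.714.

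Probe A_72_P296994, the other MVK probe, was well above background on all 45 arrays and passed in 0 of 8 comparisons with limma, with 0 of 8 at an unadjusted p under 0.05 as well. In whole blood at 27 weeks it read 7.13, 7.70, 7.02 and 6.46 in the control group, 7.16, 6.99 and 6.82 under HFCD and 6.49, 6.73 and 6.73 under HFCSD. The lowest control array lay under all arrays of both diets, so the groups overlapped, and the HFCSD change was -0.43 (95% interval -1.04 to 0.18, limma adjusted p = 0.291). In white blood cells the means were 6.96 (0.30) in the control group, 7.38 (0.48) under HFCD and 7.29 (0.16) under HFCSD, with changes of 0.42 and 0.33 that did not pass (limma adjusted p = 0.997 and 0.644). At 10 weeks the means were 7.32 (0.38), 7.55 (0.49) and 7.26 (0.25) in the same order, and at 19 weeks 6.87 (0.64), 6.96 (0.44) and 6.65 (0.42). Over the 45 arrays the MVK probes moved together only in part. After subtracting from each value the mean of its sample type and week, Pearson's r between them was 0.44 and Spearman's rho 0.41, given as a description of these arrays.

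In order of level, MVK probe A_72_P171246 was highest in the 3 groups of white blood cells, at 5.86 (0.48) for control, 5.83 (0.38) for HFCSD and 5.63 (0.23) for HFCD, and lowest in HFCSD whole blood at 27 weeks. Probe A_72_P296994 ran from 7.55 (0.49) in HFCD whole blood at 10 weeks down to 6.65 (0.14) in HFCSD whole blood at 27 weeks. For both probes each of the 11 pairs of neighbouring groups in the order overlapped, so no step between neighbours was larger than the spread of the arrays.

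PMVK, the kinase that acts after MVK, was close to background. Probe A_72_P234547 was well above background on 6 of 45 arrays, with values from 1.41 to 5.30 and a median of 1.57, and probe A_72_P278469 on 8 of 45, with values from 1.43 to 4.31 and a median of 3.25. On 22 and 4 of the 45 arrays the printed signal was only the software's noise level. Neither PMVK probe was well above background on all arrays of any group, so neither was tested with all arrays. The arrays that did measure A_72_P234547 were 3 of 4 control arrays of white blood cells (3.55, 4.46 and 4.65, the fourth at 1.41), 2 of 4 HFCSD arrays of white blood cells (4.11 and 3.79) and 1 of 3 HFCSD arrays of whole blood at 19 weeks (5.30). Whole blood of control pigs at 27 weeks held no such array. No difference or fold is given for it. Probe A_72_P278469 was measured on 2 arrays each of HFCSD at 10 weeks and control at 19 weeks, and on 1 array each of control and HFCD at 10 weeks, control at 27 weeks and HFCSD white blood cells. Its group means lay between 2.19 (0.89) in HFCSD white blood cells and 3.77 (0.34) in control whole blood at 19 weeks. Over the 45 arrays the PMVK probes hardly moved together, with a Pearson's r of 0.17 and a Spearman's rho of 0.07 after the same centring.

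SQLE, which catalyses the first oxygen step of sterol synthesis, was measured by probe A_72_P088686 on 44 of 45 arrays. At 10 weeks in whole blood the control arrays read 7.25, 6.56, 7.84 and 7.33, the HFCD arrays 5.78, 5.45, 6.21 and 5.80, and the HFCSD arrays 5.30, 5.39, 5.84 and 6.19. The lowest control array (6.56) lay above the highest array of either diet (6.21). At 19 weeks the control arrays read 6.33, 6.89, 7.29 and 7.16, the HFCD arrays 6.15, 4.60, 5.09 and 4.99, and the HFCSD arrays 4.90, 4.93 and 5.78. HFCD replicate 1 (6.15) came close to control replicate 1 (6.33), and the other diet arrays lay further below. At 27 weeks the control arrays read 7.21, 7.09, 7.41 and 6.68, the HFCD arrays 5.48, 5.10 and 5.57, and the HFCSD arrays 4.29, 5.04 and 5.22, the first of which was not well above background. In white blood cells at 27 weeks the control arrays read 7.57, 7.78, 7.63 and 7.09, the HFCD arrays 6.12, 6.33, 5.94 and 5.76, and the HFCSD arrays 5.63, 6.25, 5.94 and 5.76. Control and diet arrays thus did not overlap in any of the 8 comparisons.

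**Figure D1:**
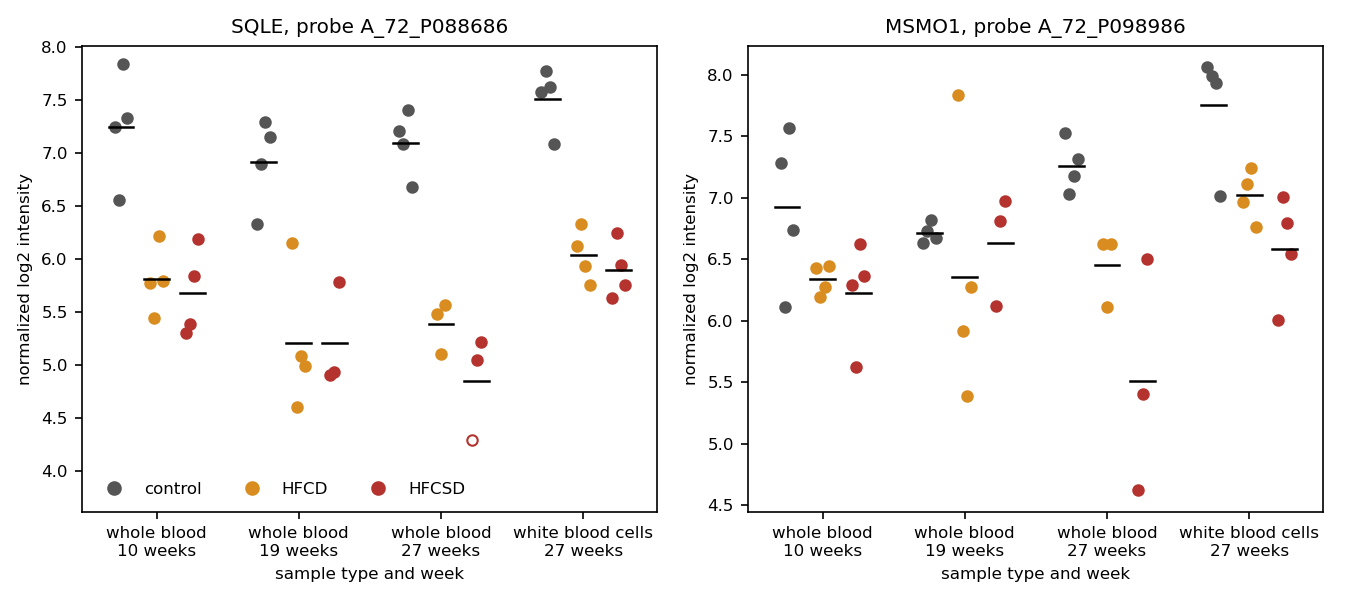
Normalized log2 intensity (vertical axes) of SQLE A_72_P088686 and MSMO1 A_72_P098986 on each of the 45 arrays, by sample type and week (horizontal axes) and diet (colours). Each circle is 1 array, open where the spot was not well above background, and each black line is a group mean. The SQLE probe A_72_P088686 shows the control arrays between 6.33 and 7.84 and the diet arrays between 4.29 and 6.33, with no overlap within a week and sample type.

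In whole blood under HFCD the SQLE change was -1.44 at 10 weeks (standard error 0.28, 95% interval -2.06 to -0.82), -1.71 at 19 weeks (0.36, -2.51 to -0.92) and -1.72 at 27 weeks (0.28, -2.33 to -1.1). These are 36.9%, 30.5% and 30.4% of the control level, and all HFCD arrays were below all control arrays (4 of 4, 4 of 4 and 3 of 3). None of the 3 changes passed over all probes (limma adjusted p = 0.202, 0.123 and 0.260), although the unadjusted p was 0.000267, 0.000559 and 8.56e-05. With all 45 arrays in 1 fit, where all groups share 1 estimate of the spread, the same changes passed (limma adjusted p = 0.0455, 0.00101 and 0.0115). Of the 12, 13 and 12 other ways of processing that use an adjusted p, that was the only one under which they did. They were also under the methods' unadjusted threshold of 0.05 in a t-test. The changes ran from -1.49 to -0.78, from -1.71 to -0.78 and from -1.85 to -0.84, with adjusted p up to 0.99976, 0.795 and 0.466 at 10, 19 and 27 weeks.

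Under HFCSD the SQLE change in whole blood was -1.57 at 10 weeks (standard error 0.28, 95% interval -2.18 to -0.95) and -1.71 at 19 weeks (0.39, -2.57 to -0.85), or 33.7% and 30.5% of control. They did not pass (limma adjusted p = 0.393 and 0.219), with all HFCSD arrays below all control arrays (4 of 4 and 3 of 3), and at an adjusted p they passed only with all 45 arrays in 1 fit (limma adjusted p = 0.0122 and 0.00486, of 12 and 13 other ways). They, too, were under the methods' unadjusted threshold in a t-test. Over the ways with an adjusted p the changes ran from -1.59 to -0.91 and from -1.79 to -0.85, with adjusted p up to 0.999998 and 0.594. At 27 weeks the SQLE change was -2.25 with an interval of -2.86 to -1.63 (limma adjusted p = 0.00717, 3 of 3 arrays lower). As HFCSD replicate 1 was not well above background, this size rests in part on background signal and no fold is given, and without that array the change was -1.97 (limma adjusted p = 0.0303). This call held without any 1 of the 7 arrays, with changes between -2.43 and -1.97. It ended with a covariate for each array's share of measured spots, where the change was -1.93 (limma adjusted p = 0.0994), and with the methods' t-test after Benjamini-Hochberg adjustment (adjusted p = 0.0564). Over 11 ways of processing it passed in 9, with changes from -2.39 to -1.07 and adjusted p from 9.27e-05 to 0.0994.

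SQLE in white blood cells at 27 weeks fell from 7.52 (0.30) in the control group to 6.04 (0.25) under HFCD and 5.89 (0.27) under HFCSD. The changes were -1.48 (95% interval -1.93 to -1.03, limma adjusted p = 0.0377) and -1.62 (-2.07 to -1.17, limma adjusted p = 0.0185), or 35.9% and 32.5% of control, with 4 of 4 arrays lower under either diet. The size held when any 1 array was left out, between -1.62 and -1.39 for HFCD and between -1.77 and -1.54 for HFCSD. The HFCD call passed only without control replicate 4 (limma adjusted p = 0.0360), and ended without control replicates 1, 2 or 3 (0.111, 0.232 and 0.161) or HFCD replicates 1, 2, 3 or 4 (0.116, 0.0649, 0.223 and 0.177). The HFCSD call ended without control replicates 2 or 3 (0.0962 and 0.0927) or HFCSD replicates 1, 3 or 4 (0.0829, 0.0902 and 0.0931). Other ways of processing gave changes from -1.62 to -0.82 for HFCD (6 of 12 past, adjusted p from 0.0224 to 0.506) and from -1.78 to -0.93 for HFCSD (10 of 12, 0.00226 to 0.181).

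Arrays of the same slide gave the same direction for SQLE A_72_P088686. On the dim probe A_72_P374783 the diet array was the higher one on the 1 slide for HFCD at 19 weeks and on 1 of 3 slides for HFCSD at 10 weeks, an order without a size. With HFCD, all of the 3 slides of week 10 that held both groups (-1.79 to -0.73), the 1 slide of week 19 (-1.74), the 2 slides of week 27 (-1.85 and -1.57) and the 3 slides of white blood cells (-1.84 to -1.30) showed a lower SQLE signal on the diet arrays. With HFCSD the same held on 3 slides of week 10 (-1.91 to -0.73), 2 slides of week 27 (-2.65 and -2.05) and 3 slides of white blood cells (-1.94 to -1.09), and at 19 weeks no slide held both groups. With the slide as a random block the SQLE changes were -1.41, -1.71, -1.74 and -1.48 for HFCD and -1.54, -1.79, -2.29 and -1.62 for HFCSD, in the order of whole blood at 10, 19 and 27 weeks and white blood cells.

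Scan day was shared by all arrays of a week and sample type, except at 19 weeks, where control replicates 2 to 4 were scanned on another day than control replicate 1 and the diet arrays. Control replicate 1 had an SQLE level of 6.33, against a mean of 7.11 for the 3 others. Against this 1 control array, which equals the fit with scan day as a block, the SQLE change at 19 weeks was -1.13 for either diet, with 4 of 4 HFCD and 3 of 3 HFCSD arrays lower, and did not pass (limma adjusted p = 0.795 and 0.563). For MVK the same array was the lowest of the week on probe A_72_P296994 (5.92), and with scan day as a block the MVK changes at 19 weeks turned above 0 on probe A_72_P171246, to 0.57 under HFCD and 0.89 under HFCSD.

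Over all 12 groups the order of SQLE on A_72_P088686 fell into 2 blocks. The 4 control groups came first, with 7.52 (0.30) in white blood cells and 7.25 (0.53), 7.10 (0.31) and 6.92 (0.42) in whole blood at 10, 27 and 19 weeks. Then came white blood cells under HFCD, 6.04 (0.25), and HFCSD, 5.89 (0.27), and whole blood at 10 weeks under HFCD, 5.81 (0.31), and HFCSD, 5.68 (0.41). The lowest were HFCD whole blood at 27 weeks, 5.38 (0.25), HFCD and HFCSD at 19 weeks, 5.21 (0.66) and 5.21 (0.50), and HFCSD at 27 weeks, 4.85 (0.49). Of the 11 pairs of neighbours 10 overlapped, and the one that did not was the step of 0.88 between the last control group and the first diet group.

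The second SQLE probe, A_72_P374783, lies closer to the start of the transcript and was well above background on 5 of 45 arrays, with values from 1.39 to 4.10 and a median of 2.23. It was not tested with this filter. Its group means were 3.62 (0.51), 2.79 (0.92) and 2.45 (1.07) for control, HFCD and HFCSD at 10 weeks, 2.96 (0.64), 1.77 (0.56) and 1.63 (0.33) at 19 weeks, 3.37 (0.34), 1.87 (0.55) and 1.83 (0.67) at 27 weeks and 2.90 (0.55), 1.78 (0.35) and 1.61 (0.17) in white blood cells. All arrays of HFCD lay below all control arrays in 2 of 4 comparisons and those of HFCSD in 3 of 4. As the signal of 15 of 45 arrays was only the noise level, these values give an order and no fold. Across the 45 arrays, after centring on sample type and week, the SQLE probes had a Pearson's r of 0.72 and a Spearman's rho of 0.68.

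MSMO1, a sterol oxidase that acts after SQLE, was well above background on all 45 arrays with probe A_72_P098986. At 10 weeks in whole blood the control arrays read 7.28, 6.12, 7.57 and 6.74, the HFCD arrays 6.43, 6.20, 6.28 and 6.45, and the HFCSD arrays 6.30, 5.63, 6.62 and 6.36. At 19 weeks they read 6.64, 6.73, 6.82 and 6.67 in the control group, 7.84, 5.92, 5.39 and 6.28 under HFCD, and 6.12, 6.81 and 6.98 under HFCSD. Control replicate 2 was the low array of its group at 10 weeks, and HFCD replicate 1 at 19 weeks stood above all controls while the other 3 HFCD arrays stood below them. At 27 weeks the control arrays read 7.52, 7.03, 7.18 and 7.31, the HFCD arrays 6.62, 6.11 and 6.63, and the HFCSD arrays 4.62, 5.40 and 6.51. White blood cells read 8.07, 7.99, 7.93 and 7.01 in the control group, 6.97, 7.11, 7.25 and 6.76 under HFCD, and 6.0, 7.01, 6.80 and 6.54 under HFCSD. At 27 weeks in whole blood the arrays of both diets lay below all controls, with HFCSD replicate 3 near the HFCD arrays and replicates 1 and 2 well below them.

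Probe A_72_P232327 of MSMO1 was well above background on 40 of 45 arrays. Its values in whole blood at 27 weeks were 5.74, 5.46, 6.16 and 5.70 in the control group, 5.14, 4.50 and 5.25 under HFCD, and 2.20, 3.48 and 5.15 under HFCSD, of which the first 2 were not well above background. At 19 weeks they were 5.20, 5.26, 5.08 and 5.01 in the control group, 6.61, 3.92, 4.20 and 3.89 under HFCD, and 4.80, 5.30 and 5.47 under HFCSD. Again HFCD replicate 1 stood high at 19 weeks, and the 3 other HFCD arrays were not well above background. White blood cells gave 6.84, 6.82, 6.71 and 5.46 in the control group, 5.53, 6.08, 5.63 and 5.25 under HFCD, and 4.44, 5.55, 5.47 and 5.08 under HFCSD. At 10 weeks the values were 6.16, 5.30, 5.97 and 5.46 in the control group, 5.47, 5.02, 5.29 and 5.40 under HFCD, and 5.44, 5.13, 5.36 and 5.53 under HFCSD, which overlapped. The MSMO1 probes moved together over the 45 arrays, with a Pearson's r and a Spearman's rho of 0.93 after centring on sample type and week.

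MSMO1 passed in 1 of 8 comparisons with control on either probe, HFCSD in whole blood at 27 weeks. There the changes were -1.75 (95% interval -2.59 to -0.91, limma adjusted p = 0.0242) and -2.15 (-3.36 to -0.94, limma adjusted p = 0.0359), with 3 of 3 arrays below all controls on both, and the level on A_72_P098986 was 29.7% of control. On A_72_P232327 2 of the 3 HFCSD arrays were not well above background, so the size there, also with arrays left out, rests in part on background signal and no fold is given. Without HFCSD replicate 1 they were -1.31 and -1.45 (limma adjusted p = 0.0842 and 0.109), and without HFCSD replicate 3 they were -2.25 and -2.92. The calls also ended without HFCSD replicate 2 (0.0720 and 0.0963) and without control replicates 1, 2 or 3 (0.0763, 0.0568 and 0.0670 for A_72_P098986, and 0.0905, 0.0707 and 0.0916 for A_72_P232327). Both calls ended as well with no filter on dim probes. They did so, too, with the share of measured spots as a covariate and with the methods' t-test after Benjamini-Hochberg adjustment. Within the 2 slides that held both groups the differences were -1.63 and -1.61 for A_72_P098986 and -2.48 and -1.98 for A_72_P232327.

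The other MSMO1 changes were smaller and did not pass. They were -0.73 under HFCD and -1.16 under HFCSD in white blood cells on A_72_P098986 (unadjusted p = 0.0197 and 0.00111, limma adjusted p = 0.978 and 0.264), and -0.83 and -1.32 on A_72_P232327 (unadjusted p = 0.0311 and 0.00235, limma adjusted p = 0.997 and 0.281). All 4 HFCSD arrays of white blood cells lay below all controls on A_72_P098986, and 2 of 4 did on A_72_P232327. Control replicate 4 was low among the white blood cell controls on both probes (7.01 and 5.46). In whole blood at 10 weeks the changes on A_72_P098986 were -0.59 under HFCD (95% interval -1.23 to 0.06) and -0.70 under HFCSD (-1.34 to -0.06). At 19 weeks they were -0.36 (-1.32 to 0.60) and -0.08 (-1.12 to 0.96), and under HFCD at 27 weeks the change was -0.81 (-1.65 to 0.03, limma adjusted p = 0.907). On A_72_P232327 the corresponding changes were -0.43, -0.36, -0.48, 0.05 and -0.80. The -0.48, for HFCD at 19 weeks, rests in part on background signal, as only 1 of those 4 HFCD arrays was well above background. The sign of the HFCSD change at 19 weeks thus differed between the probes, and neither differed from 0 beyond its error.

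The order of MSMO1 over the groups, on A_72_P098986, ran from control white blood cells, 7.75 (0.49), over control whole blood at 27 weeks, 7.26 (0.21), HFCD white blood cells, 7.02 (0.21), and control whole blood at 10 and 19 weeks, 6.93 (0.64) and 6.71 (0.08), to the other diet groups. Among these, HFCSD whole blood was highest at 19 weeks, 6.64 (0.45), and lowest at 27 weeks, 5.51 (0.95). On A_72_P232327 the ends of the order were the same groups, at 6.46 (0.67) and 3.61 (1.48). Each of the 11 pairs of neighbours overlapped on both probes.

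**Figure D2:**
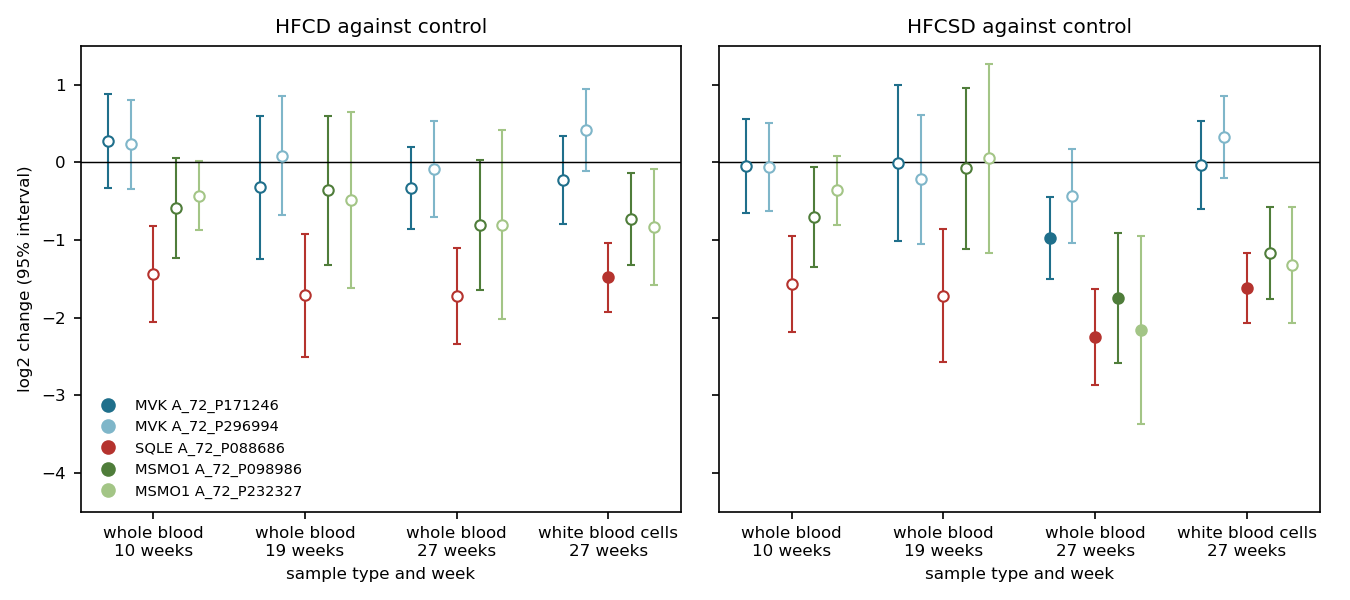
Log2 change against control (vertical axis) of the 5 tested member probes (colours) under HFCD and HFCSD, by sample type and week (horizontal axes). Points are limma estimates, bars their 95% intervals, and filled points mark an adjusted p under 0.05. SQLE lies between -2.25 and -1.44 in all 8 comparisons, and the filled points are SQLE, both MSMO1 probes and MVK A_72_P171246 in HFCSD whole blood at 27 weeks, and SQLE in white blood cells.

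Set against all probes of each comparison, 0 of the 5 member probes tested passed with limma under HFCD in whole blood at 10, 19 and 27 weeks, where 0.0281%, 0.0181% and 0.0165% of all probes tested passed. At an unadjusted p under 0.05 the member count was 1 in each of these, SQLE, beside 1776 of 17767, 2072 of 16615 and 1009 of 18188 probes. Under HFCSD at 10 and 19 weeks 0 of 5 passed, where 0.0123% and 0.0175% of all probes passed, and 2 and 1 had an unadjusted p under 0.05, beside 280 of 16198 and 2041 of 17178 probes. In HFCSD whole blood at 27 weeks 4 of 5 member probes passed, of 3 genes and all of them lower, against 10.6% of all 17135 probes tested in that comparison. SQLE, MSMO1 A_72_P232327 and MVK A_72_P171246 were tested there because they were well above background on all control arrays, and were so on 2, 1 and 1 of the 3 HFCSD arrays. Among probes well above background on every array compared 1 of 2 members passed, MSMO1 A_72_P098986, against 9.38% of 14545 probes. In white blood cells 1 of 5 passed under HFCD (0.0276% of all probes) and 1 of 5 under HFCSD (0.0366%), SQLE in both, with 3 at an unadjusted p under 0.05 in each, beside 857 of 18126 and 2158 of 19105 probes. The members that were tested had to be bright in at least 1 group, which the PMVK probes and 1 SQLE probe were not.

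The median change of the 5 tested member probes in whole blood under HFCD was -0.43, -0.36 and -0.80 at 10, 19 and 27 weeks, beside medians of 0.09, -0.03 and -0.03 over all probes tested. Under HFCSD it was -0.36, -0.08 and -1.75, beside -0.01, 0.04 and -0.21. For white blood cells the medians were -0.73 (HFCD) and -1.16 (HFCSD), beside 0.02 and 0.01. The shift of all probes in HFCSD whole blood at 27 weeks went with a smaller share of spots well above background, 38.8% to 39.7% on the 3 HFCSD arrays against 38.9% to 50.2% on the 4 controls. With that share as a covariate 0 of 5 member probes passed there with limma, as did 0 of all 17135 probes, of which 2839 had an unadjusted p under 0.05. The share differs with the diet there, so the 2 cannot be told apart.

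Counting the tested probes whose diet arrays all lay below all control arrays gave 1 of 5 members under HFCD at 10 weeks (2.40% of all probes tested), 1 under HFCSD at 10 weeks (0.315%), 1 under HFCD at 19 weeks (4.04%) and 1 under HFCSD at 19 weeks (7.53%), the SQLE probe in each. At 27 weeks in whole blood it was 4 of 5 under HFCD (4.41%) and 4 of 5 under HFCSD (16.3%), which were SQLE, both MSMO1 probes and MVK A_72_P171246 under either diet. Under HFCSD there, SQLE, MSMO1 A_72_P232327 and MVK A_72_P171246 were tested through their bright control arrays. They were well above background on 2, 1 and 1 of the 3 HFCSD arrays. This filter favours a place below the controls, so the order of these probes carries no support of its own. White blood cells had 1 of 5 under HFCD (1.00%), SQLE, and 2 of 5 under HFCSD (2.25%), SQLE and MSMO1 A_72_P098986.

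The added sucrose was looked at by setting HFCSD against HFCD. For SQLE the difference was -0.13 at 10 weeks (95% interval -0.75 to 0.49), -0.0015 at 19 weeks (-0.85 to 0.85) and -0.53 at 27 weeks (-1.19 to 0.13) in whole blood, and -0.14 in white blood cells (-0.59 to 0.31). None passed, with limma adjusted p of 0.431 at 27 weeks and above 0.89 in the others. The SQLE value at 27 weeks rests in part on background signal, as 1 of the 3 HFCSD arrays was not well above background. The MSMO1 difference at 27 weeks in whole blood was -0.94 on A_72_P098986 (-1.84 to -0.05, unadjusted p = 0.0412, limma adjusted p = 0.393). MSMO1 A_72_P232327 and MVK A_72_P171246 were lower, too, but were tested there only because they were well above background on all HFCD arrays, and were so on 1 of the 3 HFCSD arrays each, so no size is given. With limma 0 of 5 member probes passed in each of the 4 comparisons of the diets, and the count at an unadjusted p under 0.05 was 0, 0, 3 (these 2 probes and MSMO1 A_72_P098986) and 0 for whole blood at 10, 19 and 27 weeks and white blood cells. Of all probes tested 0%, 0%, 0.0111% and 0% passed, with 886, 253, 2259 and 407 at an unadjusted p under 0.05.

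White blood cells and whole blood at 27 weeks were compared within each diet. Sample type, RNA kit and scan day changed together, so they cannot be told apart. In control pigs the member probes were 0.42 higher in white blood cells for SQLE (95% interval -0.06 to 0.90), 0.49 and 0.69 for the MSMO1 probes and 0.29 and -0.12 for the MVK probes, and with limma 0 of 5 passed, 0 at an unadjusted p under 0.05, against 45.3% of all probes and 9964 of 19022 at the unadjusted threshold. Under HFCD SQLE passed with 0.66 (0.13 to 1.18, limma adjusted p = 0.0372), 1 of 5 members against 47.5% of all probes. This call ended without whole blood replicate 1 or 2 (limma adjusted p = 0.0544 and 0.166) or white blood cell replicate 1, 2 or 3 (0.0736, 0.0967 and 0.0502).

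Under HFCSD the differences between white blood cells and whole blood were 1.04 for SQLE (limma adjusted p = 0.00162), 1.08 for MSMO1 A_72_P098986 (0.0128) and 0.64 for MVK A_72_P296994 (0.0482). MSMO1 A_72_P232327 and MVK A_72_P171246 were higher in white blood cells, too (limma adjusted p = 0.0119 and 0.000659), so 5 of 5 passed against 58.8% of all probes. SQLE, MSMO1 A_72_P232327 and MVK A_72_P171246 were tested because they were well above background on all white blood cell arrays, and were so on 2, 1 and 1 of the 3 whole blood arrays. The SQLE value thus rests in part on background signal, and no size is given for the other 2. Among probes well above background on every array compared 2 of 2 members passed, against 52.7% of 14153 probes, and with the share of measured spots as a covariate 0 of 5, against 31.4% of all probes. The median of the 5 was 1.08, beside 0.42 over all probes tested. The calls of MSMO1 ended without whole blood HFCSD replicate 1 (limma adjusted p = 0.134 for A_72_P098986, with a difference of 0.63, and 0.139 for A_72_P232327). The MVK call of A_72_P296994 ended without any 1 of the 7 arrays, at 0.56, 0.68 and 0.68 without whole blood replicates 1, 2 and 3 and at 0.64, 0.68, 0.69 and 0.57 without white blood cell replicates 1 to 4 (limma adjusted p from 0.0596 to 0.146).

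Whether a diet changed the members differently in the sample types was tested as the change in white blood cells minus that in whole blood. For SQLE it was 0.24 under HFCD (95% interval -0.48 to 0.95) and 0.63 under HFCSD (-0.09 to 1.34, limma adjusted p = 0.324). Under HFCSD it was 0.59 for MSMO1 A_72_P098986 (limma adjusted p = 0.506). SQLE, MVK A_72_P171246 and MSMO1 A_72_P232327 were well above background on only 2, 1 and 1 of the 3 HFCSD arrays of whole blood, so the SQLE value under HFCSD rests in part on background signal and no size is given for the other 2. With limma 0 of 5 members passed under HFCD, where 0% of all probes passed, and 0 of 5 under HFCSD, where 1.38% did, with 0 and 1 member probes at an unadjusted p under 0.05 (the 1 was MVK A_72_P171246), beside 267 of 20072 and 3922 of 20379 probes. Whether the changes of the members differ between the sample types remains unresolved at this number of arrays.

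Over time, the change at 27 weeks minus that at 10 weeks was -0.28 for SQLE under HFCD (95% interval -1.23 to 0.67) and -0.68 under HFCSD (-1.63 to 0.27, limma adjusted p = 0.445). For MSMO1 under HFCSD it was -1.05 on A_72_P098986 (-2.22 to 0.12, limma adjusted p = 0.360). On A_72_P232327 no size is given, as 2 of the 3 HFCSD arrays at 27 weeks were not well above background. The SQLE value under HFCSD rests in part on background signal, as 1 of those 3 arrays was not well above background. With limma 0 of 5 members passed under either diet, as did 0% of all probes under HFCD and 0% under HFCSD, and 0 and 1 member probes had an unadjusted p under 0.05 (the 1 was MSMO1 A_72_P232327, tested through brighter groups), beside 521 of 19141 and 2664 of 17898 probes. In the control pigs alone, 27 weeks against 10 weeks gave -0.15 for SQLE (-0.79 to 0.49), 0.33 and 0.04 for the MSMO1 probes and 0.37 and -0.25 for the MVK probes. With limma 0 of 5 members passed there, 0 at an unadjusted p under 0.05, against 20.7% of all probes and 6086 of 17140 at the unadjusted threshold. Week of feeding, age of the pigs, slide and scan day changed together in this comparison, so they cannot be told apart.

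The members moved together across arrays to different degrees. After centring on the mean of sample type and week, SQLE A_72_P088686 had a Pearson's r of 0.77 with MSMO1 A_72_P098986 and of 0.71 with MSMO1 A_72_P232327 (Spearman's rho 0.79 and 0.75), over 45 arrays. MVK A_72_P171246 had an r of 0.47 with SQLE and of 0.62 with MSMO1 A_72_P098986 (rho 0.51 and 0.64). For MVK A_72_P296994 these were 0.13 and 0.11 (rho 0.18 and 0.14). The arrays share diets, slides and scan days, so these are descriptions of the 45 arrays, with no test.

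Among the named genes with a probe well above background on at least 23 arrays (1156 genes), the 5 whose pattern over the 45 centred arrays was most like SQLE were CYP51A1 (r = 0.90), MSMO1 (0.77), WNT10B (0.74), PRNP (0.74) and ST3GAL4 (0.74). For MSMO1 they were CYP51A1 (0.82), PRNP (0.82), ALG2 (0.82), MOCS3 (0.82) and SIRT1 (0.81). CYP51A1 is the sterol demethylase that acts between SQLE and MSMO1 in the pathway. For MVK A_72_P296994 the 5 were JPT1 (0.87), RTFDC1 (0.85), IDH2 (0.83), ACADS (0.81) and SLC2A8 (0.80), none of them from the lists of sterol genes. With Spearman's rho in place of r, 3 of the 5 genes of SQLE, 4 of MSMO1 and 5 of MVK were the same, and without centring 4, 4 and 4.

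CYP51A1 A_72_P177531, the nearest neighbour of SQLE in pattern, passed in 1 of 8 comparisons with control, HFCSD whole blood at 27 weeks, with -1.36 (limma adjusted p = 0.0249). In whole blood its HFCD changes were -0.84, -0.79 and -1.05 (10, 19 and 27 weeks), and its other HFCSD changes -0.75 (10 weeks) and -0.61 (19 weeks). White blood cells gave -0.78 and -0.75. A second CYP51A1 probe, A_72_P155691, was dim. In whole blood at 27 weeks its mean was 3.40 under HFCSD and 3.53 in control. It was not well above background on any of those HFCSD arrays and was not tested there, so no fold is given.

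Users of mevalonate outside sterol synthesis were represented by 1 of 8 genes, FNTA, a subunit of the enzymes that attach isoprenoid groups to proteins. Its changes under the diets lay between -0.22 and 0.12, 0 of 8 passed with limma and 0 had an unadjusted p under 0.05. FNTA was higher in white blood cells than in whole blood in all 3 diet groups. The differences were 1.04, 0.99 and 1.1 for control, HFCD and HFCSD (limma adjusted p = 0.000349, 0.00119 and 0.000328). Of all probes tested 45.3%, 47.5% and 58.8% passed there, and RNA kit and scan day changed with the sample type.

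ABCA1, a sterol export pump, passed in 8 of 8 comparisons in the direction opposite to SQLE, with changes from 1.98 to 2.53. Its probe, A_72_P079266, was named from a similarity to 9% of the mouse protein, so this name is less certain. SQLE A_72_P088686 was lower and ABCA1 higher on all diet arrays than on all controls in each of the 8 comparisons, which share their control arrays between the diets.

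No marker probe of platelets, neutrophils, T cells, monocytes or liver passed in any of the 8 comparisons of a diet with control (limma). The median log2 change of the 4 platelet probes was -1.04, -1.74 and -1.13 under HFCD in whole blood at 10, 19 and 27 weeks and -1.0 in white blood cells, with all 4 below 0 in each, and -0.12, -0.47, -1.39 and -0.35 under HFCSD in that order. At 10 weeks their summed intensity was 16727 to 24676 on the control arrays and 11588 to 13040 on the HFCD arrays, which did not overlap, as for SQLE. The summed intensity of the 4 platelet probes was 21736, 21183, 27478 and 25297 on the control arrays of whole blood at 27 weeks, 13800, 15419 and 11195 under HFCD and 23900, 14793 and 3377 under HFCSD. The neutrophil marker LTF was higher on average in all 8 comparisons, with HFCD changes of 0.06, 0.44, 0.67 and 0.70 and HFCSD changes of 0.81, 0.72, 0.73 and 0.66 in the same order, with control and diet arrays that overlapped in each. On the HFCSD arrays the order of the platelet sum was opposite to that of MSMO1, which was lowest on replicate 1. The sum of the T cell probes was 6997, 7209, 8498 and 7151 in the control group and 5370, 6078 and 7743 under HFCSD, and that of the monocyte probes 19763, 14026, 16082 and 13754 in the control group and 8094, 13660 and 15012 under HFCSD. Both sums had the same order over the HFCSD replicates as SQLE and MSMO1, lowest on replicate 1 and highest on replicate 3. Probe by probe, these markers went both ways there. Their median log2 change was 0.0053 for T cells (-0.50 to 1.36) and 0.035 for monocytes (-0.58 to 1.02). At 19 weeks all 9 T cell probes tested were above 0 under either diet, with medians of 0.65 and 0.65. Monocyte medians of that week were -0.43 under HFCD and -0.19 under HFCSD, with probes on both sides of 0. In white blood cells the T cell sum was 11760, 11308, 12638 and 7256 on the control arrays, lowest on replicate 4, the array that was also lowest for SQLE, MSMO1 and MVK A_72_P171246, and the platelet sum 2031, 50588, 48659 and 53373, lowest on replicate 1. White blood cells were also set against whole blood, with control, HFCD and HFCSD in that order. Of the T cell probes 8, 6 and 8 of 10 passed as higher in white blood cells (limma). For monocyte probes it was 4 of 11, 2 of 10 and 3 of 10. Of all probes tested 4642 of 19022, 4955 of 19414 and 7310 of 19689 passed as higher. The monocyte counts under HFCD and HFCSD were no larger shares than these. The medians were 0.97, 1.16 and 1.17 for T cells and 0.95, 0.75 and 0.81 for monocytes. The part of these cell markers in the member results was not tested.

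The probe sequences and the start positions given with the array show which piece of a sequence each probe was designed for. No pig transcript sequences were at hand, so these places and cross-hybridization were not checked. All member probes are 60 bases long, with a GC content of 35% to 45%. Each occurs once on the array, and the 2 probes of a gene share no run of 20 bases. The SQLE probe that carried the results starts at base 2478 of its transcript, while the dim SQLE probe starts at base 1066. The MSMO1 probes start at bases 1456 and 1075 of different sequences, the ovary clone for A_72_P098986 and the RefSeq transcript for A_72_P232327. Shown are the last 30 bases of the first SQLE probe, in which capitals mark the letters AATAAA, the whole of the dim SQLE probe, and the first 30 bases of each MSMO1 probe, so that the regions can be found again in other annotations.
SQLE A_72_P088686, bases 31 to 60: gcaAATAAAatgaagaatcaactctcaaaa
SQLE A_72_P374783, bases 1 to 60: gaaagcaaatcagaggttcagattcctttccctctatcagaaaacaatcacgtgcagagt
MSMO1 A_72_P098986, bases 1 to 30: gtttgaggtgattctctttcttcgaggagt
MSMO1 A_72_P232327, bases 1 to 30: ttccatgaggaaactttaaaggacatgttg
The letters AATAAA, known as a signal for the addition of the poly(A) tail, were in 3 of 8 member probes (37.5%), one each of MVK, PMVK and SQLE, and in 5279 of all 43603 probes (12.1%). On the other strand, as TTTATT, they were in 0 of 8 and in 2019 of all probes (4.63%). A match is only a run of letters and was not tested for a role.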

How the data were processed

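RNA of 45 blood samples was hybridized in 1 colour to porcine Agilent arrays of 45220 spots (1417 control and 43803 probe spots, 43603 probes, 50 of them with several spots). Per the file headers the spot intensity was extracted by the authors with Feature Extraction 10.5.1.1 from scans of a G2505C scanner. The methods of the study name another version of the software and another scanner model, and the headers were followed here. The processed signal, which has the local background subtracted, was deposited on a linear scale. The deposited series table holds the same intensity after quantile normalization by the authors on a linear scale, with column medians near 0.0999.

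The processed signal was put on the log2 scale, quantile normalized over the 45 arrays at spot level, cleared of 1 to 31 outlier spots per array, and averaged per probe. No probe spot was saturated. Comparisons used limma 3.58.1 in R 4.3.3 (linear fit, contrasts, empirical Bayes, two-sided), with the packages data.table (1.17.8), Biostrings 2.70.1, Python 3.11.15 and matplotlib 3.10.9, and the scripts were tested on simulated data. The 20 comparisons were each diet with control (8), the diets with each other (4), white blood cells with whole blood (3), differences of changes between sample types (2) and between 27 and 10 weeks (2), and control whole blood over time (1).

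Of all probes 2958 were named, for 1903 genes, 2001 by RefSeq accession, 123 by gene ID, 817 by gene name and 17 by description. Named in the text are all member probes, users of mevalonate, ABCA1, cell markers, and the 5 genes most like the brightest probe of each member (CYP51A1 with its changes), PMVK left out as too dim. Some other genes of sterol balance, and counts that include them, are not reported here. The members and lists were chosen with earlier results of these data known. The alternatives changed the normalization, background correction (normexp, offset 50), source of the values, filter, arrays in the fit, blocks, covariate and test, or left out 1 array at a time.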

Additional observations from a re-analysis of the deposited data

Results flagged for a closer look

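In groups of 4 arrays a value was set aside for a closer look where the gap between the highest or lowest array and its nearest neighbour was most of the range of the group. The lowest ratio of gap to range that was marked was 0.839, and the highest not marked was 0.811. Chance alone marks about 1 in 20 groups if the values spread normally, which spots at background need not do. Of 72 pairs of probe and group 11 were marked, several of them for the same array. The values below are the gap divided by the range, and their cause was not tested.

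For MVK A_72_P296994 these were HFCD replicate 2 at 10 weeks (0.912, log2 intensity 6.82, the others 7.76 to 7.85) and control replicate 1 at 19 weeks (0.937, 5.92, the others 7.16 to 7.24). For PMVK A_72_P234547, not well above background in any of these groups, they were control replicate 4 at 10 weeks (0.965, 2.79), HFCD replicate 1 at 10 weeks (0.953, 2.77) and control replicate 4 at 19 weeks (0.903, 2.18), all high. For PMVK A_72_P278469 they were control replicate 1 at 19 weeks (0.866, 3.25, low) and control replicate 4 of white blood cells (0.839, 3.63, high).

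SQLE A_72_P374783 had HFCD replicate 2 at 19 weeks (0.985, 2.61, the others 1.48 to 1.5), all 4 not well above background. MSMO1 A_72_P232327 had HFCD replicate 1 at 19 weeks (0.889, 6.61, the others 3.89 to 4.20). Control replicate 4 of white blood cells was low on both MSMO1 probes, A_72_P098986 (0.873, 7.01, the others 7.93 to 8.07) and A_72_P232327 (0.901, 5.46, the others 6.71 to 6.84).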

How the results depend on the processing

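Of the values under another setting, for probes tested with all arrays and the main filter, 1110 kept their direction and side of the threshold, 40 no longer passed, 16 passed anew and 28 turned direction. Of the 16, 11 came from the methods' t-test at an unadjusted 0.05, and 5 from all 45 arrays in 1 fit at the adjusted threshold. With 1 array left out, of the changes tested with all arrays 806 kept both, 41 no longer passed and 53 turned direction. All that turned had not passed, and the cause was not tested. The series table with values below 1 set to 1 was not run, since most of its values lie below 1. The series table without that floor was chosen after seeing the data and kept 100 of 100 changes. Scan day gave a value only at 19 weeks and for the differences of changes, where the contrast was estimable. Dim spots limit PMVK and 1 SQLE probe, which were not tested with all arrays.

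With the replicate block the number of passing member probes in HFCSD whole blood at 27 weeks was 3 in place of 4. MVK A_72_P171246 was -0.94 there (limma adjusted p = 0.0623), and MVK A_72_P296994 was 0.67 (0.0532) for white blood cells against whole blood under HFCSD. Turned under the replicate block were SQLE for HFCSD against HFCD at 19 weeks (0.0020), HFCSD at 19 weeks for MVK A_72_P171246 (0.0901) and MSMO1 A_72_P232327 (-0.10), and MSMO1 A_72_P232327 for the change in white blood cells minus whole blood under HFCD (0.0946). The numbers were not taken to pair the arrays. In 1 of 18 pairs of groups did all same-numbered arrays correlate over 0.1 (from -0.597 to 0.694 over all pairs), and 22 of 63 correlated best with their own number. The 1 was HFCSD whole blood at 10 and 27 weeks (0.102 to 0.461). Between sample types 5 of 10 correlated best with their own number, and between 10 and 27 weeks 5 of 10. Whether the numbers name the same pig there was not settled.

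Turned with the 75th percentile was MSMO1 A_72_P232327 under HFCSD at 19 weeks (-0.00801) and in control at 27 against 10 weeks (-0.0494), and with the slide as a random block the former (-0.0626). Turned with normexp were MVK A_72_P296994 under HFCD at 27 weeks (0.0064), MVK A_72_P171246 under HFCSD at 10 and 19 weeks (0.0369 and 0.0555), MSMO1 A_72_P232327 for HFCSD against HFCD at 10 weeks (-0.0695), and the change in white blood cells minus whole blood under HFCD for MSMO1 A_72_P098986 (-0.0759) and MVK A_72_P171246 (-0.0119). With scan day as a block those at 19 weeks were MVK A_72_P171246 (0.57 under HFCD, 0.89 under HFCSD) and, under HFCSD, MVK A_72_P296994 (0.74), MSMO1 A_72_P232327 (-0.0135) and MSMO1 A_72_P098986 (0.0010). With a covariate for each array's share of measured spots MVK A_72_P296994 turned for HFCSD at 27 weeks (0.0901), HFCSD against HFCD in whole blood at 27 weeks (0.17) and in white blood cells (0.16), and the HFCSD change at 27 minus 10 weeks (0.0112). MVK A_72_P171246 turned there for HFCD at 10 weeks (-0.0666), HFCSD at 19 weeks (0.0683), HFCD in white blood cells (0.10) and HFCSD against HFCD in white blood cells (-0.13), and MSMO1 A_72_P232327 for the change in white blood cells minus whole blood under HFCD (0.0899) and control at 27 against 10 weeks (-0.10).

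Numbers of passing member probes were those of the main run under every setting except as above and as follows, with 4 in HFCSD whole blood at 27 weeks, 5 for white blood cells against whole blood under HFCSD, and 1 for that comparison under HFCD and for either diet in white blood cells in the main run. All 45 arrays in 1 fit gave 1 in HFCD and HFCSD at 10 and 19 weeks and HFCD at 27 weeks in whole blood, 3 in HFCSD at 27 weeks, and for white blood cells against whole blood 0 under HFCD and 4 under HFCSD. No filter gave 1 in HFCSD at 27 weeks, 0 in HFCD white blood cells, and for white blood cells against whole blood 0 under HFCD and 4 under HFCSD. Normexp gave 3 in HFCSD at 27 weeks, 0 in HFCD white blood cells, and for white blood cells against whole blood 0 under HFCD and 3 under HFCSD. Only the groups compared gave 3 in HFCSD at 27 weeks, 0 for either diet in white blood cells, and 3 for white blood cells against whole blood under HFCSD. Probes present on every array gave 1 in HFCSD at 27 weeks and 2 for white blood cells against whole blood under HFCSD. For the last the replicate block and the slide as a random block each gave 4. The covariate gave 0 there, in HFCSD at 27 weeks and in HFCD white blood cells. The weaker flag gave 0 in HFCD white blood cells and 5 in HFCSD at 27 weeks, where the dim SQLE probe was added. For white blood cells against whole blood under HFCSD it gave 5 as before, with MVK A_72_P296994 lost and the dim PMVK A_72_P278469 added. The methods' t-test after adjustment gave 0 in HFCSD at 27 weeks and either diet in white blood cells, and unadjusted 1 in both diets at 10 and 19 weeks, 4 in HFCD at 27 weeks, 2 in HFCD and 3 in HFCSD white blood cells.

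With 1 array left out the number of passing member probes was 1 to 4 in HFCSD at 27 weeks, 0 to 1 for either diet in white blood cells, and for white blood cells against whole blood 0 to 1 in control (the 1 was PMVK A_72_P234547, tested only without white blood cell replicate 1, its lowest array there, so that this count carries no result), 0 to 1 in HFCD and 2 to 4 in HFCSD (5 with all arrays). Changes of MVK A_72_P171246 ran from -0.23 to 0.18 (HFCSD 10 weeks), -0.63 to 0.0273 (HFCD 19), -0.31 to 0.20 (HFCSD 19), -0.26 to 0.10 (HFCSD white blood cells), -0.0341 to 0.62 (HFCSD against HFCD 19) and -0.13 to 0.23 (white blood cells minus whole blood, HFCD). Those of MVK A_72_P296994 ran from -0.18 to 0.0689 (HFCSD 10), -0.23 to 0.27 (HFCD 19), -0.53 to 0.0276 (HFCSD 19), -0.29 to 0.12 (HFCD 27), -0.30 to 0.0412 (HFCSD against HFCD, white blood cells) and -0.32 to 0.0908 (white blood cells against whole blood, control). Those of SQLE ran from -0.30 to 0.0069 and -0.29 to 0.31 (HFCSD against HFCD, 10 and 19 weeks) and -0.38 to 0.0495 (control over time). For MSMO1 A_72_P098986 they ran from -0.25 to 0.18 (HFCSD 19), -0.24 to 0.0874 and -0.0415 to 0.77 (HFCSD against HFCD, 10 and 19), -0.17 to 0.18 (white blood cells minus whole blood, HFCD) and -0.43 to 0.0509 (27 minus 10 weeks, HFCD). For MSMO1 A_72_P232327 they ran from -0.0876 to 0.25 (HFCSD 19), -0.0234 to 0.15 (HFCSD against HFCD 10), -0.36 to 0.11 (white blood cells minus whole blood, HFCD) and -0.10 to 0.19 (control over time).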
